A study of Homo sapiens with 6 samples.

Results

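AP-1 is a family of transcription factors built from FOS and JUN proteins, and its genes were measured together with EGR1, IER2 and SRF in cells given a low dose of camptothecin. The set was given by name as FOS, FOSB, FOSL1, FOSL2, JUN, JUNB, JUND, EGR1, IER2 and SRF. Of these 10 genes, 9 had a row among the 13696 genes of the deposited table and all 9 passed the filter of a mean of 1 CPM (counts scaled to the library total). FOS had no row and was not analysed here. The cells were hTERT RPE-1, a telomerase-immortalised line from human retinal pigment epithelium. There were 3 libraries of untreated cells and 3 of cells given 25 nM camptothecin, a topoisomerase 1 inhibitor, for 1 h and harvested 24 h after it was removed (the pre-dose). All are from a single line, and the labels do not say whether replicates were separate cultures, so the spread behind each p-value may be technical in part or in whole.

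FOS and JUN proteins join in pairs through a leucine zipper and bind short AP-1 sites in promoters and enhancers. JUN proteins can pair with each other, whereas FOS proteins need a JUN partner. FOS, FOSB, JUN, JUNB, EGR1 and IER2 are classical immediate early genes: serum, growth factors or stress switch them on within minutes, without new protein synthesis, and their messenger RNAs decay quickly. SRF, the serum response factor, binds the CArG box in the control regions of many of these genes and of actin and other contractile genes.

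More genes differed by replicate number than by treatment. Both replicate 1 libraries stood apart from the other 4, so values are given for each library. Libraries of the same number are called partners or pairs, a match that the labels do not state. With the group in the model, the replicate number itself passed an adjusted p of 0.05 in limma for 27.4% of the 13616 genes. In limma without the replicate number in the model, the pre-dose comparison passed for 0% of them, and 2.06% had an unadjusted p under 0.05 (280 genes). In the model with both, the pre-dose comparison passed for 0% and 10.6% had an unadjusted p under 0.05. CDKN1A, the p53 target that encodes p21, had 162, 229 and 233 CPM in untreated replicates 1, 2 and 3 and 217, 573 and 472 CPM in the pre-dose libraries. Of 13 fixed markers of pigment epithelium, 3 had a row (BEST1, MITF and OTX2), and defining markers such as RPE65, RLBP1 and TYR had none. Of 5 simple epithelium markers, KRT8 and KRT18 were at 869 to 979 and 413 to 461 CPM, and KRT19, CDH1 and EPCAM had no row. Of 6 mesenchyme markers 5 had a row (VIM, CDH2, FN1, COL1A1 and THY1), and their summed level was 24872 to 30792 CPM in untreated and 25117 to 29826 CPM in pre-dose libraries.

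Promoter letters were compared because SRF and its CArG boxes are the textbook route to EGR1. The RefSeq promoter sequences used here covered the 250 bases before the start site for 8 of the 9 genes. FOSL1 had no entry among them and is named only. Both strands were searched for the CArG box, for the AP-1 site TGANTCA, for the cyclic AMP response element TGACGTCA and for the EGR site GCGNGGGCG. Variants of these letters, such as TGACATCA in the window of JUN, were not counted. No matches overlapped in these genes. CArG boxes were found in 2 of the 8 windows, EGR1 and SRF, each with 2, against 1.16% of 35116 windows of this length with any. The EGR site was found in the same 2 windows, against 8.41% of all windows. The cyclic AMP response element was found in JUND, against 1.65% of all, and the exact letters TGANTCA in 0 of the 8, against 6.57%. These 3 windows are shown because EGR1 and SRF shared their motifs and not their variation, and JUND had the smallest p for the pre-dose. They lie on GRCh38.p14 at chr5:138465229-138465478 (plus strand), chr6:43171019-43171268 (plus strand) and chr19:18281623-18281872 (minus strand), 5′ to 3′, with every matched motif in capitals.
EGR1: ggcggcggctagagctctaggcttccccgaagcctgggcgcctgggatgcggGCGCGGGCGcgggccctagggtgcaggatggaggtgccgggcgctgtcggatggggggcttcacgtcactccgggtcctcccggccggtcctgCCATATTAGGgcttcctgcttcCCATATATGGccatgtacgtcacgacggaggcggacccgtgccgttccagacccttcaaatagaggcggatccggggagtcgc
SRF: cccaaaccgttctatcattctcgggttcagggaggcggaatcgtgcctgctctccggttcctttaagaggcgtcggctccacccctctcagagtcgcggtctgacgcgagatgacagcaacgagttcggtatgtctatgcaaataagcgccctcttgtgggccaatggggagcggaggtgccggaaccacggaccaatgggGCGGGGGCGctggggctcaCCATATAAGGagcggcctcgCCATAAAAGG
JUND: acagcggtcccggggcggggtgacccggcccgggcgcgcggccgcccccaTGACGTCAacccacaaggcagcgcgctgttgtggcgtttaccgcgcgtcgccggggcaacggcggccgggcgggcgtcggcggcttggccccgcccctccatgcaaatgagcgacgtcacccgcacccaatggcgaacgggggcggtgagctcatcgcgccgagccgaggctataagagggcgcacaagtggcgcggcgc
In EGR1 the CArG boxes began 105 and 83 bases before the start and the EGR site 198 bases before it. In SRF they began 30 and 10 bases before the start, with the EGR site at 49. A match is a description of the letters and not evidence of a bound factor.

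Scaled to exon length, FOSL1 had the highest level of the 9 genes. It had a mean level of 134 ± 35.5 CPM per kb (SD over 6 libraries, both groups). JUND followed with 60.4 ± 4.49, JUN with 44.6 ± 3.63 and FOSL2 with 36.2 ± 3.58 CPM per kb. The order went on with SRF at 26.6 ± 1.22, JUNB at 22.6 ± 5.22, IER2 at 15.9 ± 1.12, EGR1 at 4.64 ± 3.89 and FOSB at 0.299 ± 0.0454 CPM per kb. The ranges over the 6 libraries overlapped between JUN and FOSL2, between SRF and JUNB and between JUNB and IER2. JUN was nevertheless above FOSL2 within each of the 6 libraries, whereas SRF was above JUNB, and JUNB above IER2, in 4 of 6. The other neighbours in that order did not overlap. Lengths are the joined exons of all annotated transcripts, so a gene with many transcripts, such as FOSB with 5553 exon bases, is scaled down more than one with few. The place of FOSL1 above FOSL2 rests on this scaling, by 1887 exon bases for FOSL1 and 7157 for FOSL2. Without it their mean levels were 253 and 259 CPM, and FOSL2 was above FOSL1 in 4 of 6 libraries.

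**Figure D1:**
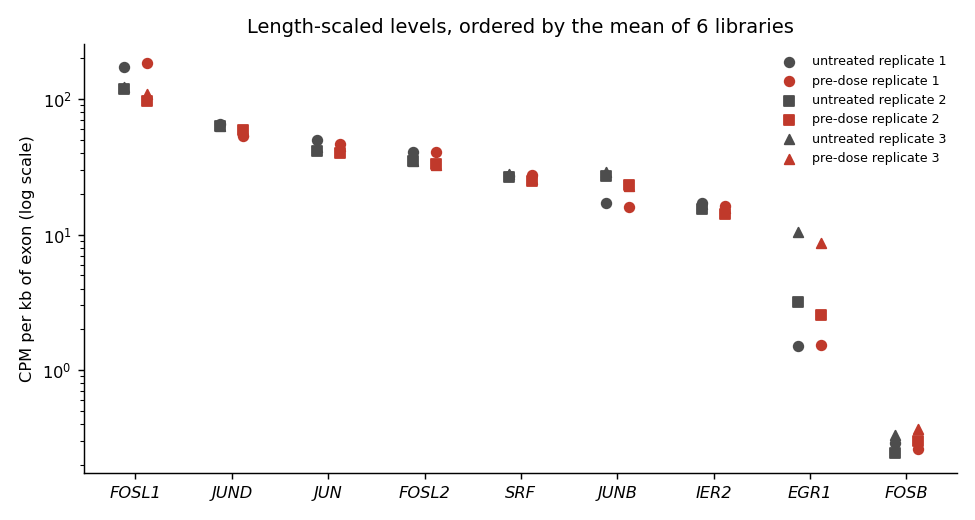
Level of each gene per kb of exon (log axis, CPM per kb) in the 6 libraries, in order of the mean; grey marks untreated and red marks pre-dose libraries, and the shape gives the replicate number. FOSL1 stands highest and FOSB lowest, and EGR1 is spread by replicate number from 1.52 to 10.4 CPM per kb.

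SRF had the smallest range over the 6 libraries among the 9, with the highest library 1.14 times the lowest. Of the 1435 genes within 0.5 log2 units of its level, 33.0% had a smaller range. It lies on chromosome 6 from 43171299 to 43181507 and had 113, 113 and 118 CPM in untreated replicates 1, 2 and 3, and 116, 104 and 108 CPM in the pre-dose libraries. The pre-dose level was above its partner in replicate 1 and below it in replicates 2 and 3, and the groups overlapped. The log2 difference, pre-dose minus untreated on log2(CPM + 1), was -0.07 with a 95% interval of -0.21 to 0.07, and did not pass (adjusted p = 1.00 in limma).

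EGR1, a zinc finger transcription factor, varied more than any other of the 9, and did so by replicate number. It lies on chromosome 5 from 138465490 to 138469315. Untreated replicates 1, 2 and 3 had 4.77, 9.97 and 32.7 CPM, and pre-dose replicates 1, 2 and 3 had 4.83, 7.97 and 27.2 CPM. Replicate 3 was highest and replicate 1 lowest in both groups, and each treated library stood close to the untreated library of its own number. The highest library was 6.87 times the lowest, a range that ranked 47 among the 13616 genes. The median of that ratio was 1.26 over the 2126 genes within 0.5 log2 units of its level. Even the lowest library held 140 estimated reads of EGR1.

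The replicate number passed for EGR1 with an adjusted p of 7.14e-05 in limma, as it did for 5 of the 9 genes, EGR1, FOSL1, FOSL2, JUN and JUNB, against the 27.4% of all genes. This test was chosen after the values had been seen. Pre-dose EGR1 was 101%, 80.0% and 83.0% of its untreated partner in replicates 1, 2 and 3. Its log2 difference was -0.18 with an interval of -1.94 to 1.58 (adjusted p = 1.00 in limma). With the replicate number as a block the interval narrowed to -0.37 to 0.01 and the difference still did not pass (adjusted p = 0.488). A log2 change of 1 in either direction lay inside the first interval and outside the second, which rests on the pairing of the libraries by number.

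IER2, a nuclear immediate early protein, was a little lower in each treated library than in its partner. It lies on chromosome 19 from 13150415 to 13154908, and untreated replicates 1, 2 and 3 had 53.0, 47.6 and 51.8 CPM. The pre-dose libraries had 50.0, 43.4 and 48.0 CPM, that is 94.4%, 91.1% and 92.7% of their partners. The groups overlapped, since treated replicates 1 and 3 were above untreated replicate 2. The log2 difference was -0.11 with an interval of -0.29 to 0.07 and did not pass (adjusted p = 1.00 in limma). An antisense gene, AC011446.2, shares 946 of the 3072 exon bases of IER2, and since the strand setting is not given, its reads cannot be told apart from those of IER2.

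**Figure D2:**
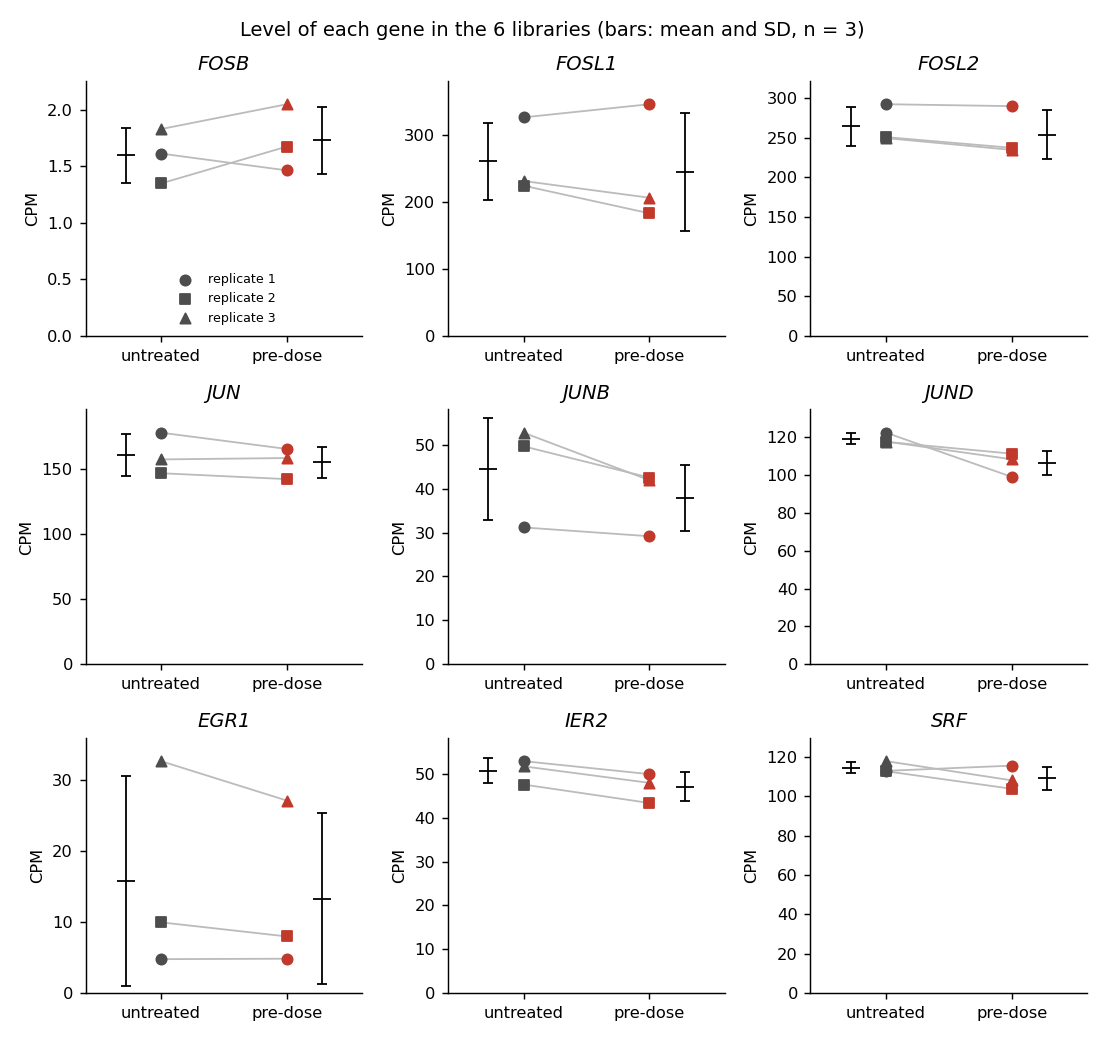
CPM of the 9 genes in untreated (grey) and pre-dose (red) libraries, with the axis from 0 in each panel; shapes give the replicate number, grey lines join libraries of the same number, and bars are the mean and SD of 3 libraries. EGR1 separates by replicate number, JUND is the only gene whose groups do not overlap, and the lines of JUNB, JUND, FOSL2 and IER2 go down in all 3 pairs.

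Of the FOS family members with a row, FOSL1 and FOSL2 were far above FOSB, which was close to the filter. FOSL1, also called FRA1, is a FOS protein that sustained ERK signalling stabilises, and it lies on chromosome 11 from 65892049 to 65900573. It had 326, 224 and 231 CPM in untreated replicates 1, 2 and 3 and 346, 183 and 206 CPM in the pre-dose libraries. Both replicate 1 libraries were above the other 4, and the pair of replicate 1 went up while both others went down, to 106%, 81.6% and 89.2% of the partner. The log2 difference was -0.12 with an interval of -0.71 to 0.46 (adjusted p = 1.00 in limma). In replicates 2 and 3 alone it was -0.23, with an interval of -0.34 to -0.12, and passed (adjusted p = 0.0231), where 6.36% of all genes passed in either direction. Replicate 1 on its own allows no test.

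FOSL2, also called FRA2, lies on chromosome 2 from 28392448 to 28417312 and followed FOSL1 across libraries. It had 292, 251 and 249 CPM in untreated replicates 1, 2 and 3 and 290, 237 and 235 CPM in the pre-dose libraries. Replicate 1 was again highest in both groups, and each treated library was below its partner, at 99.2%, 94.6% and 94.0% of it. Over the 6 libraries the log2 levels of FOSL1 and FOSL2 had a Pearson correlation of 0.98, in which the shared offset of replicate 1 takes part. The difference of FOSL2 was -0.06 on the log2 scale, with an interval of -0.30 to 0.18, and did not pass.

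FOSB, an immediate early FOS protein, was the only one of the 9 with a higher mean after the pre-dose. It lies on chromosome 19 from 45467995 to 45475179 and had 1.61, 1.35 and 1.83 CPM in untreated and 1.46, 1.67 and 2.05 CPM in pre-dose replicates 1, 2 and 3. Its groups overlapped, with replicate 1 lower and replicates 2 and 3 higher than their partners. The lowest library held 35.0 estimated reads, the fewest of the 9 genes, while EGR1, FOSL1 and JUNB had wider intervals. The log2 difference was 0.07 with an interval of -0.23 to 0.37.

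JUNB and JUND were lower after the pre-dose in all 3 pairs, and JUN was not. JUND, the JUN protein that many resting cells keep at a steady level, lies on chromosome 19 from 18279760 to 18281622. It had 122, 117 and 117 CPM in untreated replicates 1, 2 and 3 and 98.8, 111 and 108 CPM in the pre-dose libraries. All 3 treated libraries were below all 3 untreated ones, the only such gene among the 9, where 3.19% of all genes had such groups. The mean went from 119 ± 2.75 to 106 ± 6.40 CPM (SD, n = 3 each), with pre-dose replicate 1 the lowest at 80.9% of its partner. Its log2 difference of -0.17 had an interval of -0.31 to -0.02 and an unadjusted p of 0.0320 that ranked 142 of 13616 genes in limma (adjusted p = 1.00). In replicates 2 and 3 alone the difference was -0.10 (adjusted p = 0.151).

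JUNB, a JUN protein that can restrain growth driven by JUN, lies on chromosome 19 from 12791496 to 12793315. It had 31.2, 49.6 and 52.7 CPM in untreated replicates 1, 2 and 3 and 29.2, 42.5 and 41.9 CPM in the pre-dose libraries. Replicate 1 was lowest in both groups, the reverse of FOSL1, and the treated libraries were at 93.6%, 85.6% and 79.5% of their partners. With all 6 libraries the log2 difference was -0.21 with an interval of -0.73 to 0.31 (adjusted p = 1.00 in limma), a fit in which the offset of replicate 1 counts as spread. With the replicate block the interval was -0.34 to -0.09 (adjusted p = 0.323). In replicates 2 and 3 alone the difference was -0.27 and passed (adjusted p = 0.00927). HOOK2, on the opposite strand, shares 259 of the 1820 exon bases of JUNB, and without the strand setting its reads cannot be told apart from those of JUNB there.

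JUN itself, the strongest activator of the family, lies on chromosome 1 from 58780788 to 58784327. It had 178, 147 and 157 CPM in untreated replicates 1, 2 and 3 and 165, 142 and 158 CPM in the pre-dose libraries. Treated libraries were at 93.0%, 96.9% and 101% of their partners, and the groups overlapped. The log2 difference was -0.05, with an interval of -0.26 to 0.16 (adjusted p = 1.00 in limma).

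Across the set, 0 of 9 genes passed an adjusted p of 0.05 in limma, as did 0% of all genes, and 1 of 9 had an unadjusted p under 0.05, where 2.06% of all genes had one. The mean was lower after the pre-dose for 8 genes and higher for 1. The median log2 difference was -0.11 over the 9 and -0.0013 over all genes tested. By pair, 6, 8 and 7 of the 9 were lower in replicates 1, 2 and 3, with medians of -0.083, -0.12 and -0.12 against -0.0041, -0.0025 and 0.0013 over all genes. FOSL2, JUNB, JUND and IER2 were lower in all 3 pairs, 4 of 9, where 16.3% of all genes were, and 0 of 9 were higher in all 3. In replicates 2 and 3 alone 2 of 9 passed, FOSL1 and JUNB, both lower, where 3.47% of all genes passed as lower. That fit leaves out replicate 1, the pair in which FOSL1 was higher and JUNB fell least. With the replicate block, JUNB, JUND and IER2 had an unadjusted p under 0.05, 3 of 9, where 10.6% of all genes had one, and 0 passed after adjustment. Voom with library quality weights passed 0 of 9, where 0.793% of all genes passed.

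The authors' deposited table called 0 of the 9 at an adjusted p of 0.05, where 3.05% of its genes were called. In the authors' deposited table JUND had the smallest adjusted p of the set, 0.0886 at a log2 difference of -0.12, followed by JUNB (0.127 at -0.28) and SRF (0.135 at -0.11). Those 3 had an unadjusted p under 0.05 in the authors' deposited table, as had 23.3% of its genes, and were lower, as were 11.2%. FOSB was at 0.24 there, and JUN and EGR1 at 0.01 each, so 6 of 9 were lower in the authors' deposited table. The summed level of cycling cell markers rose in pair 1 and fell in pairs 2 and 3, as FOSL1 did, whereas JUNB fell in all 3 pairs. For MKI67, TOP2A, CCNB1, BUB1B, CDK1 and PLK1 this sum was 1808 to 1828 CPM in untreated libraries. It was 2116, 1324 and 1474 CPM in pre-dose replicates 1, 2 and 3, and its part in the results for FOSL1 and JUNB was not tested.

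**Figure D3:**
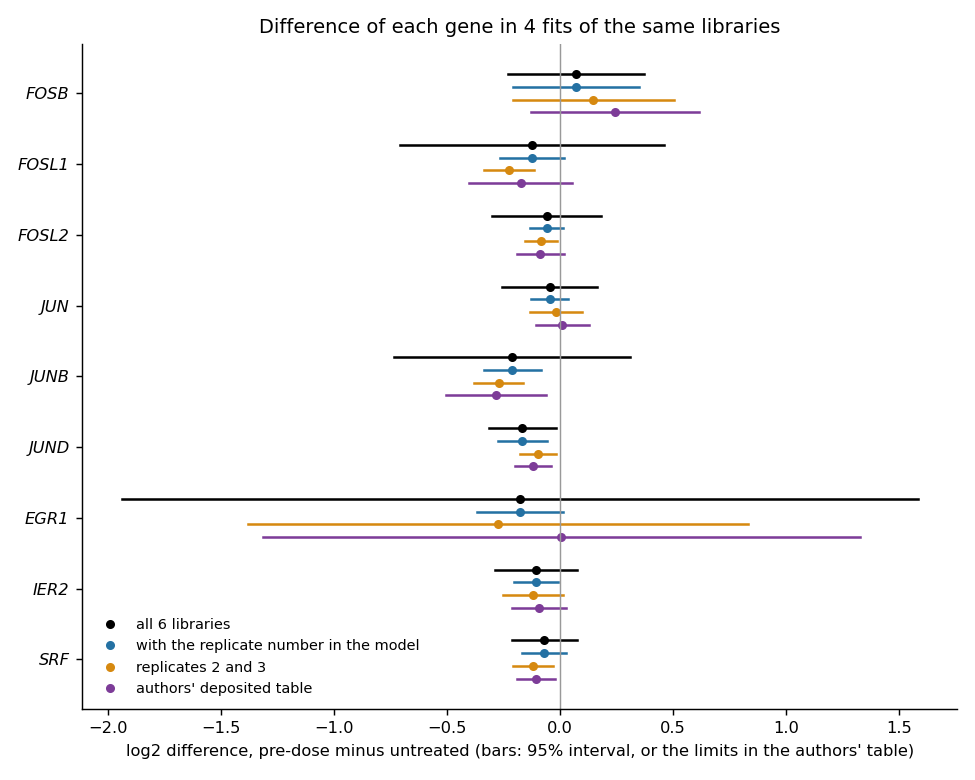
Log2 difference of each gene, pre-dose minus untreated, with its 95% interval in limma with all 6 libraries, with the replicate number in the model and in replicates 2 and 3, and with the limits in the authors' deposited table (on log2 CPM, the others on log2(CPM + 1)). The replicate term narrows EGR1 most, from -1.94 to 1.58 down to -0.37 to 0.01, and JUNB and JUND lie below 0 in 3 and 4 of the fits.

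Genes that surround AP-1 were read from fixed lists, which were chosen with earlier results of these data known. Upstream, 0 of 23 tested genes of the ERK, JNK and p38 cascades passed in limma, with a median difference of -0.03. The authors' deposited table called 1, EGFR, a growth factor receptor, as higher (adjusted p = 0.0388), where 1.61% of its genes were called higher. Its level was 258, 227 and 230 CPM in untreated and 246, 252 and 267 CPM in pre-dose replicates 1, 2 and 3, so it was higher in replicates 2 and 3 only. MAP2K1, the kinase MEK1, had a difference of -0.09 and MAP3K1 of -0.12, neither passing. Among 8 genes of FOS and JUN turnover, including the ligases FBXW7, ITCH and COP1, 0 passed and the median was 0.03.

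Other bZIP partners of the family gave 0 calls among 9 tested genes and a median difference of 0.0051. JDP2, a repressor that dimerises with JUN proteins, had 8.43, 8.56 and 8.52 CPM in untreated and 7.88, 7.08 and 7.28 CPM in pre-dose replicates 1, 2 and 3. Its groups did not overlap, and the difference of -0.18 did not pass (adjusted p = 1.00 in limma, 0.0802 in the authors' deposited table). MAF had a difference of 0.26 and ATF7 of 0.07, neither passing. EGR2, EGR3 and EGR4 had no row. NAB2, a corepressor that binds EGR proteins and is itself an EGR1 target, had 17.4, 16.6 and 16.8 CPM in untreated and 14.2, 15.3 and 15.1 CPM in pre-dose replicates 1, 2 and 3. The NAB2 groups did not overlap either, at a difference of -0.18 with an unadjusted p of 0.0376 in limma. JDP2 and NAB2 were named for the smallest p of their lists, which favours groups without overlap. Among all genes 3.19% had lower groups without overlap.

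Of 41 other immediate early genes tested, 0 passed in limma, the median difference was -0.04, and 13 were lower and 9 higher in all 3 pairs, where 16.3% and 15.6% of all genes were. The authors' deposited table called 6 of them, 5 higher and 1 lower, where 1.61% and 1.45% of its genes were called. The higher ones were BTG2, PHLDA1, IER5, PLK2 and PLK3 and the lower one KLF10, and apart from BTG2 and PHLDA1 these were named after their values were seen. BTG2, an antiproliferative p53 target, had 2.87, 4.31 and 3.64 CPM in untreated and 4.39, 12.8 and 8.74 CPM in pre-dose replicates 1, 2 and 3. That is a log2 difference of 0.98 (unadjusted p = 0.0177 in limma), and the groups did not overlap. PHLDA1 differed by 0.22 and KLF6, a zinc finger factor, by -0.21, also without overlap. BTG2, PHLDA1 and KLF6 were named for the smallest p of their list, which favours groups without overlap. Among all genes 3.19% had lower groups without overlap, and the share with higher ones was not counted. KLF6 was not called in the authors' deposited table (adjusted p = 0.0688).

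SRF cofactors gave 0 calls among 7 tested, with a median of 0.03. FHL2, a LIM protein that binds SRF, had the smallest p of these at a difference of 0.11. The actin and muscle targets of SRF were mostly a little lower after the pre-dose. Of 25 tested, 20 were lower and 1 higher in all 3 pairs, where 16.3% and 15.6% of all genes were, and the median difference was -0.13. By pair the median was -0.05, -0.12 and -0.22 in replicates 1, 2 and 3. In limma 0 of 25 passed. The authors' deposited table called 11 of them, all lower, where 1.45% of its genes were called lower, and 12 passed as lower in replicates 2 and 3, where 3.47% of all genes did. In that fit of replicates 2 and 3 all 6 cycling cell markers, COL1A1 and KRT18 also passed as lower, and the part of cycling cells in the result for these targets was not tested. TAGLN (transgelin), which binds actin filaments, had 909, 1081 and 1140 CPM in untreated and 850, 888 and 850 CPM in pre-dose replicates 1, 2 and 3, a difference of -0.27. TPM4, a tropomyosin, differed by -0.16 and TGFB1I1, a focal adhesion protein, by -0.15. The groups of these 3 genes did not overlap, where 3.19% of all genes had lower groups without overlap. They were named for the smallest p of their list, which favours such groups.

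Reported AP-1 targets showed no common direction. Of 23 tested, 0 passed in limma, the median was 0.01, and 6 were lower and 5 higher in all 3 pairs, where 16.3% and 15.6% of all genes were. The authors' deposited table called 4 higher and 2 lower, where 1.61% and 1.45% of its genes were. DUSP4, a phosphatase that turns off ERK, had 35.4, 33.7 and 33.4 CPM in untreated and 36.1, 41.7 and 43.2 CPM in pre-dose replicates 1, 2 and 3, a difference of 0.23. ITGA5, an integrin subunit, differed by -0.24 and HMGA2, a chromatin protein, by 0.13. MMP1, MMP3, MMP9 and MMP10, matrix metalloproteases, and CXCL8 had no row.

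**Figure D4:**
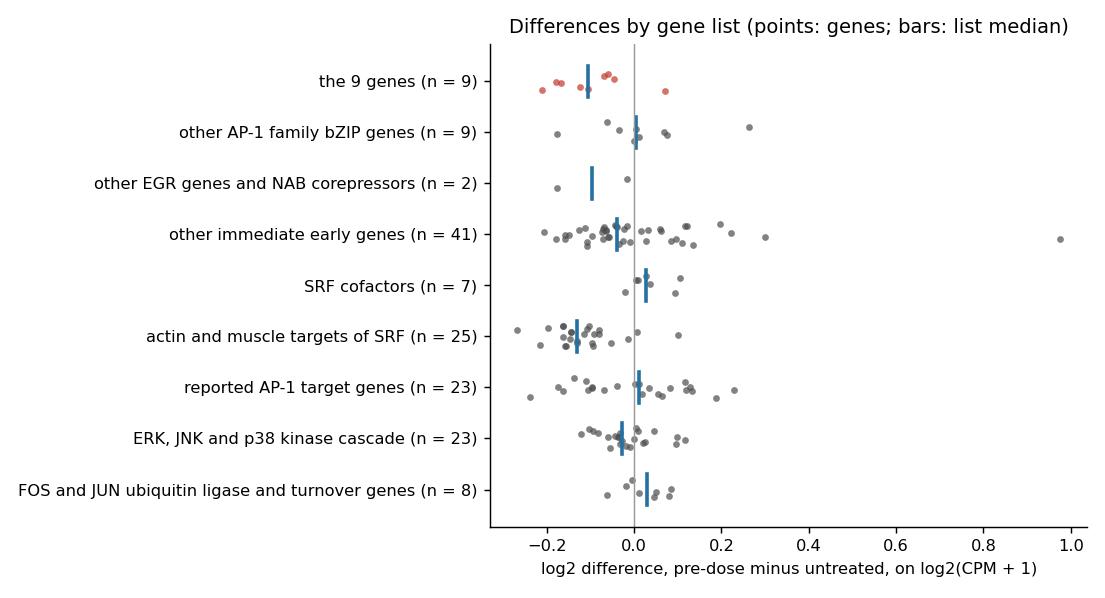
Log2 difference, pre-dose minus untreated on log2(CPM + 1), of each tested gene (points) in the 9 genes (red) and in the fixed lists around them (grey), with the list median as a blue bar. The actin and muscle targets of SRF have the lowest median, -0.13, and the point at 0.98 is BTG2.

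Few genes followed EGR1. By Pearson correlation of log2 CPM over the 6 libraries, the closest were PTGER4 (0.99), SLC9A7P1 (0.98) and ZNF66 (0.98), and 15 tested genes were above 0.95. Their highest library was 1.41, 2.00 and 1.38 times the lowest, against 6.87 for EGR1. Among the closest to FOSL1 were HSPA8 (0.999) and AKAP12 (0.998), with 870 genes above 0.95. The closest to JUN were GUK1 (0.997), E4F1 (0.996) and GCSH (0.995), with 132 genes above 0.95. The genes named for EGR1 were highest in replicate 3 of both groups, and those named for FOSL1 and JUN in replicate 1 of both. All of these correlations rest on the same 6 libraries and are a description. Within the set, EGR1 correlated at 0.77 with JUNB, 0.70 with FOSB, 0.15 with JUND, 0.07 with SRF and 0.0056 with IER2. The correlation was -0.29 with JUN, -0.60 with FOSL1 and -0.72 with FOSL2.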

How the data were processed

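The 10 genes and the gene lists were chosen with earlier results of these data known. The authors deposited 1 table for the 6 libraries, holding log2 CPM values, where CPM divides a gene's counts by an effective library total. The lowest value of each column, read as 0 counts with 0.5 added, gave totals of 26336942 to 31780392 reads, at which 3 counts equal 0.0944 to 0.114 CPM (counting error only). The low values lay on hundredths of a read, so they are estimated counts and not whole reads. Of 13773 rows, 77 repeated a gene identifier and were dropped. The authors also deposited log2 fold changes with confidence limits, a moderated statistic (a score) and p-values of their own comparison, per the file headers. Their sign was untreated minus pre-dose and was turned here. The build hg38 and the tools bcl2fastq, DRAGEN, edgeR and limma come from the submitters' processing notes, which give no versions. How reads were counted, the strand setting and the annotation used are not given in these sources.

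The test was limma-trend (limma 3.58.1, R 4.3.3) on log2(CPM + 1) over the 13616 genes whose mean reached 1 CPM, two-sided, with Benjamini-Hochberg adjustment over all of them and a threshold of 0.05. A test of raw counts had been planned in case the table held them, and was not used. Fold changes on this scale understate changes of low genes. The scripts were tested on simulated data. The groups share replicate numbers. Deviations from the group means of same-numbered libraries correlated across genes at 0.66, 0.45 and 0.18, so the libraries were treated as paired by number, which the labels do not state. Untreated replicate 3 correlated more with pre-dose replicate 2, at 0.51, and pre-dose replicate 3 more with untreated replicate 2, at 0.28. Which of replicates 2 and 3 match across groups was thus not settled, and values by pair and the replicate block rest on it. Alternatives were smaller pseudocounts, other filters, other scalings, a replicate block, replicates 2 and 3 alone, library quality weights (voom) and leaving out each library. A test of the replicate number itself was chosen after the data were seen. Genes named outside the 10 were those of each list with the smallest p, up to 3 a list, and the 3 genes most correlated with EGR1, FOSL1 and JUN, of which 1 is not reported here. Gene positions and exon lengths came from GENCODE release 29 (GRCh38), and promoter sequences from RefSeq (GRCh38.p14). Figures were drawn with matplotlib 3.10.9.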

Additional observations from a re-analysis of the deposited data

How the results depend on the processing

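Over 15 alternatives, the 9 genes gave 134 values (FOSB did not pass the filter at a mean of 5 CPM), of which 122 kept their direction and their side of the threshold. In replicates 2 and 3 alone, 866 genes passed in all, 2 of the 9 did (FOSL1 at -0.23 and JUNB at -0.27) and 30 of the 138 genes of the surrounding lists did. Voom with library quality weights passed 108 genes in all, 0 of the 9 and 10 of the lists, and turned JUN to 0.0043. The replicate block passed 0 in each and changed no call, and its unadjusted p was under 0.05 for 1443 genes against 280. Leaving out each library in turn, with no block, left each of these counts at 0. The differences then ran from -0.012 to 0.14 for FOSB, -0.40 to 0.057 for FOSL1, -0.16 to 0.014 for FOSL2, -0.11 to 0.029 for JUN, -0.44 to -0.04 for JUNB, -0.20 to -0.12 for JUND, -0.83 to 0.52 for EGR1, -0.15 to -0.05 for IER2 and -0.11 to -0.03 for SRF. Where a library of replicate 1 is dropped, its partner's offset enters the contrast. The median over all genes moved by less than 0.1 under each scaling. FOSB had the fewest estimated reads of the 9 genes, 35.0 in its lowest library. The causes of these changes were not tested.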
